A study of Homo sapiens with 47 samples.

Results

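The LIN28 and let-7 axis was followed through the differentiation of human embryonic stem cells (hESCs) with 10 genes, chosen by name from the 58051 genes listed in each library: the RNA-binding proteins *LIN28A* and *LIN28B*, the let-7 targets *HMGA2*, *IGF2BP1*, *IGF2BP2*, *IGF2BP3*, *ARID3A* and *TRIM71*, and *MIRLET7BHG* and *MIR100HG*, a pair of long transcripts from which let-7 microRNAs are cut. All 10 were measured in 47 polyA RNA-seq libraries of the WA09 (H9) hESC line, an established line. Libraries came from 3 independent differentiations (r1, r2 and r3). Each differentiation was sampled as undifferentiated hESCs in mTESR1 (t0), as neuromesodermal progenitor (NMP)-like cells after 36 h in N2B27 lacking vitamin A to which rhFGF2, the GSK3 inhibitor CHIR-99021, the retinoic acid receptor inverse agonist AGN193109 and the ROCK inhibitor Y-27632 were added, and at each of 10 passages (P1 to P10) in that same medium, in which pre-neural progenitors (PNPs) and neural crest (NC) cells arise. P9 was available from r1 and r2, all other groups from r1, r2 and r3, and at P5 and P8 epithelial (EPI) and mesenchymal (MES) cells were also enriched by selective detachment with TrypLE, which gave 12 fraction libraries beside 35 whole cultures.

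let-7 is a family of microRNAs that matures late in development and silences mRNAs with a matching site, mostly in the 3′ untranslated region (UTR). The LIN28 proteins bind the precursors of let-7 and block their maturation, and *LIN28A*, *LIN28B* and several other targets carry let-7 sites themselves, so that the axis is known as a switch with either LIN28 or let-7 high. It is best known for holding stem cells and early embryonic progenitors in an immature, growing state. PolyA RNA-seq does not measure mature microRNAs, and let-7 itself was not measured here.

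The sequences below, taken from RefSeq (GRCh38.p14), show what the host genes can give rise to. Capitals mark the seed, bases 2 to 8 of the mature microRNA, by which targets are paired.
let-7a: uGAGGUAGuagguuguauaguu
let-7b: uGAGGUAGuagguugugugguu
let-7c: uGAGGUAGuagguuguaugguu
let-7e: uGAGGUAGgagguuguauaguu
miR-100: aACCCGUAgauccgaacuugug
miR-125b: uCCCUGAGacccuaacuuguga

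The seed GAGGUAG of let-7a was shared by 12 microRNA genes with 9 different mature sequences, which are let-7a to let-7g, let-7i and miR-98. *MIRLET7BHG*, a lincRNA gene at chr22:46053869-46113928 on the plus strand (GENCODE 29, GRCh38), spans the precursors of let-7a-3 and let-7b. *MIR100HG*, a processed transcript at chr11:122028327-122556721 on the minus strand, spans let-7a-2 together with miR-100 and miR-125b-1, which have other seeds. The 3 let-7 hairpins inside these transcripts are printed with the seed in capitals and, after the first arm, the letters GGAG in capitals, a motif that LIN28 proteins are known to bind.
let-7a-3: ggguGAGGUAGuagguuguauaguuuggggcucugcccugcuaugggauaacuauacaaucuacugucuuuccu
let-7b: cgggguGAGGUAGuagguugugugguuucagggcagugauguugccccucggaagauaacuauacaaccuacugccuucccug
let-7a-2: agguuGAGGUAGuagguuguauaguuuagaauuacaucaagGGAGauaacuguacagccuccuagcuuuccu

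GGAG, searched on the transcribed strand after the first arm, was present in let-7a-2 of *MIR100HG* and in neither hairpin of *MIRLET7BHG*. It was present in 9 of the 12 genes of the family. A match of letters is a description of the sequence, not a measured binding site.

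All 8 protein-coding genes held the letters CTACCTC, which pair with the let-7 seed, in the 3′ UTR of their principal transcript. There were 6 matches in *TRIM71*, 4 each in *LIN28B*, *HMGA2* and *IGF2BP1*, 2 in *ARID3A*, and 1 each in *LIN28A*, *IGF2BP2* and *IGF2BP3*. Of 18804 genes with a 3′ UTR, 8.53% held 1 or more matches and 0.165% held 3 or more. The UTRs of the 8 genes were 1792 to 6206 bases long, and among 4774 genes in this length range the shares were 16.7% and 0.335%. These genes were chosen as known let-7 targets, so their matches describe the choice. The match nearest the stop codon is shown for each gene in 30 bases of the transcript's strand (GRCh38, letters from the GENCODE 29 transcripts), with the match and the A after it in capitals.
*LIN28A*, chr1:26427344-26427373, plus strand: gagtgcacagcctattgaaCTACCTCAttt
*LIN28B*, chr6:105078808-105078837, plus strand: ctttacccggttgcaaagtCTACCTCAtgc
*TRIM71*, chr3:32891964-32891993, plus strand: gtacaacattgcttaagtcCTACCTCAtct
*HMGA2*, chr12:65963294-65963323, plus strand: gggcgccaacgttcgatttCTACCTCAgca
*ARID3A*, chr19:974507-974536, plus strand: gcctgctgcctatctctgtCTACCTCAggt
*IGF2BP1*, chr17:49051057-49051086, plus strand: atgctgtgtgcgaagtaaaCTACCTCAagg
*IGF2BP2*, chr3:185644217-185644246, minus strand: gaaaaacacacagaagaagCTACCTCAggt
*IGF2BP3*, chr7:23311792-23311821, minus strand: aacgtgcatttttactcaaCTACCTCAggt

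Library totals ran from 13029491 to 64082859 expected counts with a median of 47292229, the lowest being P6.r3, P4.r3 and P1.r1. The summed TPM, a level corrected for transcript length and library size, of 5 pluripotency markers lay between 2899 and 3293 at t0 and between 22.4 and 56.0 at P9. In the P5 fractions, 6 PNP and epithelial markers summed to 504 to 762 TPM in EPI and 94.7 to 271 in MES, and 7 mesenchymal and NC markers to 102 to 281 in EPI and 481 to 598 in MES. At P8 the ranges of both lists overlapped between the fractions. *CDX2*, *SOX2* and *GBX2* carried the first list, while the epithelial genes *CDH1* and *ESRP1* had medians of 0.12 and 0.18 TPM in the P5 EPI libraries. P10.r1 stood apart from the other P10 libraries, with 439 TPM of PNP and epithelial markers against 10.2 and 7.58, and so did P1.r1, with 1575 TPM of pluripotency markers against 204 and 164. The 5 paraxial mesoderm markers summed to 7.60 TPM in P1.r1 against 396 and 487 in P1.r2 and P1.r3, and at 36 h to 8.83, 132 and 632 TPM in r1, r2 and r3. In bulk RNA, fewer cells of a type and less RNA per cell cannot be told apart.

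*LIN28A*, the LIN28 gene of pluripotent cells (chr1:26410778-26429722, plus strand), was the most abundant of the 10 genes at t0 and close to absent at P9. Its level was 1124, 1125 and 947 TPM at t0 in r1, r2 and r3, and 934, 874 and 706 TPM at 36 h. At P1 it was 1415 TPM in r1 against 491 and 450 in r2 and r3, and at P5 it was 789, 761 and 519 TPM. P1.r1, which also stood apart in the pluripotency and paraxial mesoderm markers, was above every t0 library, and all P5 libraries were below every t0 library.

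The differentiations differed at each passage, r1 being the highest throughout where 3 libraries were measured. At P7 *LIN28A* was 1019, 307 and 222 TPM in r1, r2 and r3, and at P8 it was 681, 144 and 70.9 TPM. At P9 it was 1.04 and 0.70 TPM in r1 and r2, which rests on 76 and 59 expected counts. At P10 it was 239 TPM in r1 and 0.89 and 0.38 TPM in r2 and r3. Both P9 libraries were therefore below all P8 libraries, whereas the range at P10 overlapped that at P8 through r1 alone. In r1 the P10 library thus held more *LIN28A* than the P9 library, and it also held more PNP and epithelial markers, 439 against 24.8 TPM. Its mesenchymal and NC markers were lower, 235 against 1087 TPM. By principal-component analysis the paper grouped P10.r1 with the P8 libraries and apart from those of P9. The cause of this was not tested. In the 10 time points after t0 with 3 libraries, r1 was the highest and r3 the lowest in 10 of 10. When the 12 time points were ordered by their mean, the ranges of 10 of the 11 neighbouring pairs overlapped, and the exception was t0 above 36 h.

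Measured against its own t0, *LIN28A* first fell below 25% at P9 in r1, at P8 in r2 and at P7 in r3. It first fell below 10% at P9 in r1 and r2 and at P8 in r3. The PNP and epithelial markers followed the same order at P8, with 736, 266 and 195 TPM in r1, r2 and r3, while the mesenchymal and NC markers summed to 153, 383 and 721 TPM. At P9 the latter reached 955 to 1087 TPM and the former 19.3 to 24.8 TPM, with 6 of the 7 mesenchymal and NC markers and 4 of the 6 PNP and epithelial markers at 1 TPM or more in each P9 library. The part of cell composition in the fall of *LIN28A* was not tested.

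**Figure D1:**
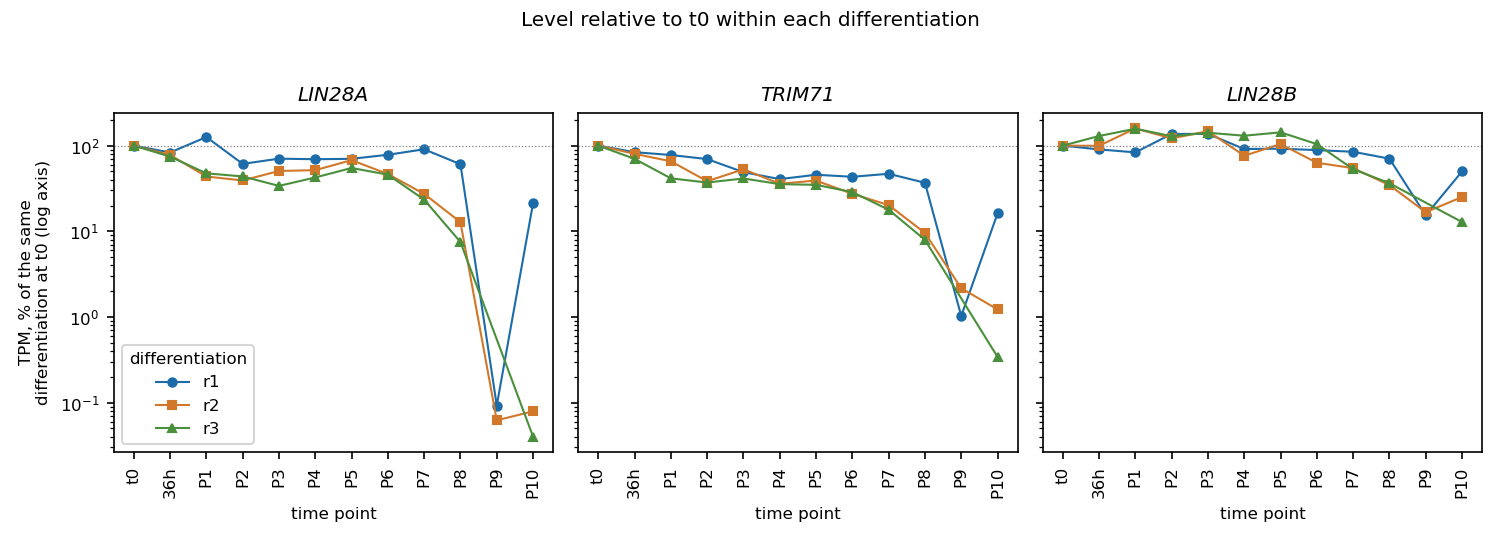
TPM of *LIN28A*, *TRIM71* and *LIN28B* as a percentage of the same differentiation at t0 (y axis, log scale) by time point (x axis), with 1 line for each of r1, r2 and r3. *LIN28A* and *TRIM71* lie far below t0 at P9, where r3 has no library, and are at 21.3% and 16.2% of t0 in r1 at P10. In both genes r1 stays above r2 and r3 from P6 to P8 and at P10, while *LIN28B* stays above 10% of t0 in every library.

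*LIN28B*, the second LIN28 gene (chr6:104936616-105083332, plus strand), had its lowest group mean at P9. At t0 it was 90.5, 90.1 and 85.3 TPM, and it had its highest mean at P3 with 124, 133 and 121 TPM. At P8 it was 63.8, 31.2 and 31.0 TPM, at P9 13.9 and 15.1 TPM, and at P10 45.2, 22.6 and 10.9 TPM. Each P8 library was thus below each t0 library, and the ranges of P8 and P10 overlapped. In none of the 3 differentiations did it fall below 10% of t0.

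The balance between both LIN28 genes therefore inverted. The ratio of *LIN28A* to *LIN28B* TPM was 11.1 to 12.5 at t0, 4.26 to 9.46 at P5 and 2.29 to 10.7 at P8. At P9 it was 0.0748 in r1 and 0.0465 in r2, and at P10 it was 5.28 in r1 and 0.0393 and 0.0348 in r2 and r3. *LIN28B* was the more abundant of the pair in both P9 libraries and in 2 of 3 at P10, and also in P8_MES.r3, with a ratio of 0.602.

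*TRIM71*, a ubiquitin ligase and RNA-binding protein of stem cells (chr3:32818018-32897826, plus strand), had its highest group mean at t0 and its lowest at P9, as *LIN28A* had, while its lowest library was P10.r3. It was 143, 118 and 129 TPM at t0, 120, 95.0 and 90.2 TPM at 36 h and 65.5, 46.3 and 44.9 TPM at P5. At P8 it was 52.8, 11.3 and 10.2 TPM, at P9 1.47 and 2.56 TPM and at P10 23.2, 1.45 and 0.44 TPM. As for *LIN28A*, r1 was the highest in all 10 time points after t0 with 3 libraries. Every P8 library was below every t0 library, by log2 ratios of 1.44 to 3.65 within differentiations.

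*HMGA2*, which codes for an architectural protein of chromatin in embryonic cells (chr12:65824131-65966295, plus strand), had its lowest group mean at t0 and its highest at P8. It was 149, 138 and 150 TPM at t0 and 138, 120 and 179 TPM at 36 h. At P1 it was 164 TPM in r1 against 341 and 335 in r2 and r3, the split that the pluripotency and paraxial mesoderm markers had there, whose part in it was not tested. At P5 it was 247, 400 and 352 TPM. At P8 it was 333, 507 and 683 TPM, and at P10 594, 382 and 460 TPM. All P8 and P10 libraries were above all t0 libraries, and the ranges of P8, P9 and P10 overlapped. Its highest value of all libraries was 683 TPM in P8.r3 and its lowest 120 TPM in 36h.r2.

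*ARID3A*, a DNA-binding protein of the ARID family (chr19:925781-975934, plus strand), rose early and was lower again at P9. It was 40.0, 42.8 and 38.3 TPM at t0, 73.9, 74.3 and 79.7 TPM at 36 h and 117, 155 and 184 TPM at P2, its highest mean. At P8 it was 130, 103 and 69.1 TPM, at P9 42.0 and 64.2 TPM and at P10 114, 66.3 and 44.2 TPM. The 36 h and P8 libraries were all above those of t0, whereas P9.r1 lay within the range of t0.

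The IGF2BP genes code for proteins that bind and stabilise mRNAs, and the 3 paralogues took 3 courses. *IGF2BP1* (chr17:48997412-49055650, plus strand) was 323, 263 and 267 TPM at t0 and 458, 377 and 361 TPM at P1, its highest mean. It was 377, 173 and 200 TPM at P8, 170 and 172 TPM at P9 and 274, 165 and 150 TPM at P10. P8.r2 and P8.r3 were thus below every t0 library, and P8.r1, at 117% of its own t0, was above them.

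*IGF2BP2* (chr3:185643739-185825056, minus strand) was the most even of the 10 genes, with library values from 103 to 164 TPM and group means that differed by no more than 1.20-fold over the time course. The ranges of all 11 neighbouring pairs of time points overlapped. *IGF2BP3* (chr7:23310209-23470467, minus strand) was 192, 167 and 193 TPM at t0 and had dropped to 125, 81.3 and 101 TPM by 36 h. It was 72.0, 64.4 and 88.4 TPM at P1 and 64.1, 63.9 and 62.9 TPM at P10, so all libraries after t0 lay below t0. Expected counts of *IGF2BP2* and *IGF2BP3* were fractional in 47 and 46 of 47 libraries, which means that RSEM divided some of their reads with other genes, and their levels are uncertain to that extent. *IGF2BP1* made up 44.6% to 50.6% of the summed TPM of the 3 paralogues at t0 and 62.5% to 63.96% at P5.

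*MIRLET7BHG*, the host of let-7a-3 and let-7b, was at the limit of detection for most of the course. It had 3, 11 and 4 expected counts at t0, 7, 4 and 4 at 36 h and 0 to 4 from P1 to P5. At P3 it had 0 in all 3 libraries, which allows up to 3 counts in each (counting error only). It had 1, 11 and 21 counts at P8, 35 and 22 at P9 and 7, 41 and 34 at P10, which is 0.67 and 0.39 TPM at P9 and 0.08, 0.72 and 0.64 TPM at P10. Both P9 libraries and P10.r2 and P10.r3 were above every t0 library. Its mean stayed under the 100 normalized counts that a call needs in each comparison, so it could not pass.

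*MIR100HG*, the host of let-7a-2, miR-100 and miR-125b-1, had its lowest group mean at t0 and its highest at P9. Since the strand setting of the counting is not given, reads of antisense neighbours could be included in the levels of *MIR100HG*, *MIRLET7BHG* and *LINC01465*, which are uncertain to that extent. *MIR100HG* was 0.73, 0.99 and 0.96 TPM at t0 and 5.00, 0.75 and 0.54 TPM at 36 h. At P5 it was 6.27, 8.42 and 9.36 TPM and at P8 6.75, 17.4 and 48.2 TPM. At P9 it was 47.2 and 19.4 TPM and at P10 7.33, 22.4 and 57.6 TPM. Each library from P2 on was above each t0 library, and r1 was the lowest of the 3 differentiations in 8 of the 10 time points after t0 with 3 libraries and the highest at 36 h and P1. The mesenchymal and NC markers summed to 153, 383 and 721 TPM at P8 and 235, 955 and 949 at P10 in r1, r2 and r3. At 36 h, where r1 was the highest in *MIR100HG*, they summed to 33.0, 35.1 and 87.1 TPM. The part of these markers in the level of *MIR100HG* was not tested. Reads of the host transcripts do not show whether the precursors were cut out of them or matured. Short microRNA genes listed in their own right had at most 2 expected counts in any library.

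**Figure D2:**
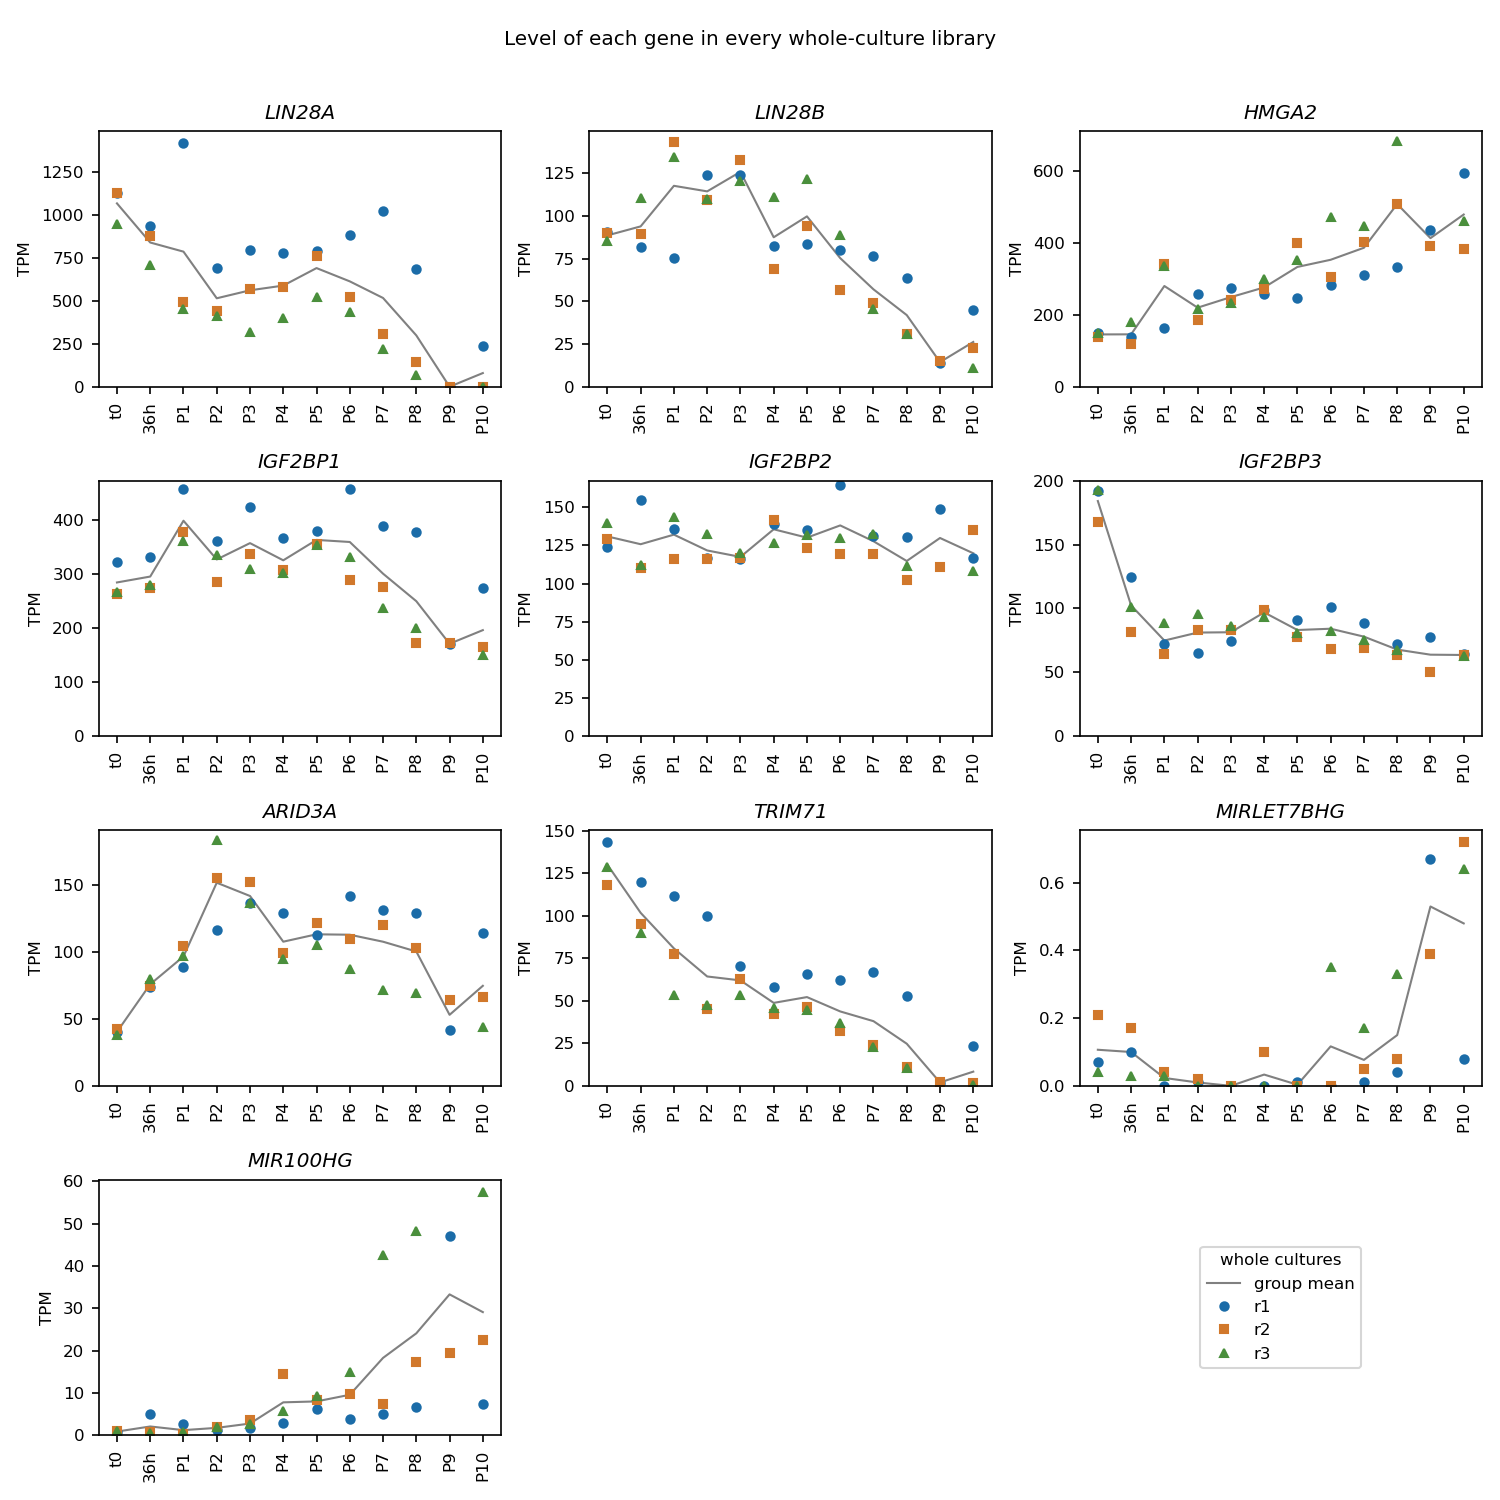
TPM (y axis, linear from 0, scale set for each gene) of the 10 genes in the 35 whole-culture libraries by time point (x axis), with points for r1, r2 and r3 and a line through the group means. The group means of *LIN28A*, *LIN28B* and *TRIM71* are lowest at P9, those of *HMGA2* and *MIR100HG* are lowest at t0, and *IGF2BP2* stays between 103 and 164 TPM.

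The comparison of late passages with hESCs asks which genes of the axis differ once PNP and NC cells have formed. The test was edgeR's quasi-likelihood F-test, blocked on differentiation, with Benjamini-Hochberg adjustment. To pass, a gene needed an adjusted p under 1%, a change of 2-fold or more, and 100 or more normalized counts on average. At P8 against t0, 6 of the 10 genes passed, 3 higher and 3 lower, where 7.66% of 21750 genes tested were called higher and 7.67% lower. *MIR100HG* was 4.49 ± 0.95 higher (log2 fold change ± SE, edgeR adjusted p = 0.000429), *HMGA2* 1.65 ± 0.25 higher (adjusted p = 1.08e-05) and *ARID3A* 1.31 ± 0.25 higher (adjusted p = 0.000145). *TRIM71* fell by 2.90 ± 0.67 (adjusted p = 0.00101), *IGF2BP3* by 1.56 ± 0.12 (adjusted p = 1.06e-09) and *LIN28B* by 1.20 ± 0.35 (adjusted p = 0.00689).

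*LIN28A* had a log2 fold change of -2.59 ± 1.01 at P8 against t0, and with an edgeR adjusted p of 0.0361 it did not pass. *IGF2BP1* at -0.19 ± 0.17 (edgeR adjusted p = 0.382) and *IGF2BP2* at -0.34 ± 0.10 (adjusted p = 0.00606, under 2-fold) did not pass either. All 3 differentiations had less *LIN28A* at P8 than at t0, by log2 ratios from 0.72 to 3.74, so the size of the drop differed more between differentiations than for *IGF2BP3*, with 1.39 to 1.52. Without r1 the log2 fold change of *LIN28A* was -3.44 and it passed, as it did in DESeq2 and without P10.r1. Without r2, 2 of the 10 genes passed, as *LIN28B*, *TRIM71*, *MIR100HG* and *ARID3A* lost their calls. Without r3, 3 passed, as *LIN28B*, *TRIM71* and *MIR100HG* lost theirs. Of 17 other settings *LIN28B* kept its call in 13 (adjusted p up to 0.185), *TRIM71* in 14 (up to 0.0501), *MIR100HG* in 15 (up to 0.0152), *ARID3A* in 16 (up to 0.0248) and *HMGA2* and *IGF2BP3* in 17. Over these settings the log2 fold change ran from -1.61 to -0.98 for *LIN28B* and from -3.64 to -2.42 for *TRIM71*. It ran from 3.34 to 4.99 for *MIR100HG* and from 1.06 to 1.57 for *ARID3A*.

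At P10 against t0, 6 of 10 passed, 2 higher and 4 lower, with 9.47% of the genes tested called higher and 8.74% lower. *LIN28A* fell by 4.99 ± 1.15 on the log2 scale (edgeR adjusted p = 0.000822), *TRIM71* by 4.75 ± 0.74 (adjusted p = 1.10e-05), *LIN28B* by 1.86 ± 0.36 (adjusted p = 0.000139) and *IGF2BP3* by 1.61 ± 0.12 (adjusted p = 4.03e-10). *MIR100HG* was 4.85 ± 0.97 higher (edgeR adjusted p = 0.000192) and *HMGA2* 1.63 ± 0.25 higher (adjusted p = 9.75e-06). *ARID3A* at 0.92 ± 0.25 was under 2-fold, and *IGF2BP1* at -0.52 ± 0.17, *IGF2BP2* at -0.31 ± 0.10 and *MIRLET7BHG* at 2.15 ± 0.95 had edgeR adjusted p-values of 0.0132, 0.0107 and 0.0602. The *LIN28A* change was -10.79 without r1 and ran from there to -3.90 over 17 other settings, with edgeR, DESeq2 or limma adjusted p-values up to 0.071. Its call held in 13 of the 17 and was lost without r2, without r3, without the block and when the P10 and t0 libraries were fitted alone. In that last fit *LIN28B*, *TRIM71* and *MIR100HG* lost their calls as well, which left *HMGA2* and *IGF2BP3*, and *LIN28B* also lost it without r2. Of the 17 settings *LIN28B* kept its call in 15 (adjusted p up to 0.0264) and *TRIM71* and *MIR100HG* in 16 each (up to 0.0354 and 0.0124). Over these settings the log2 fold change ran from -2.41 to -1.52 for *LIN28B*, from -7.15 to -3.93 for *TRIM71* and from 3.58 to 5.37 for *MIR100HG*. Both comparisons share the t0 libraries.

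**Figure D3:**
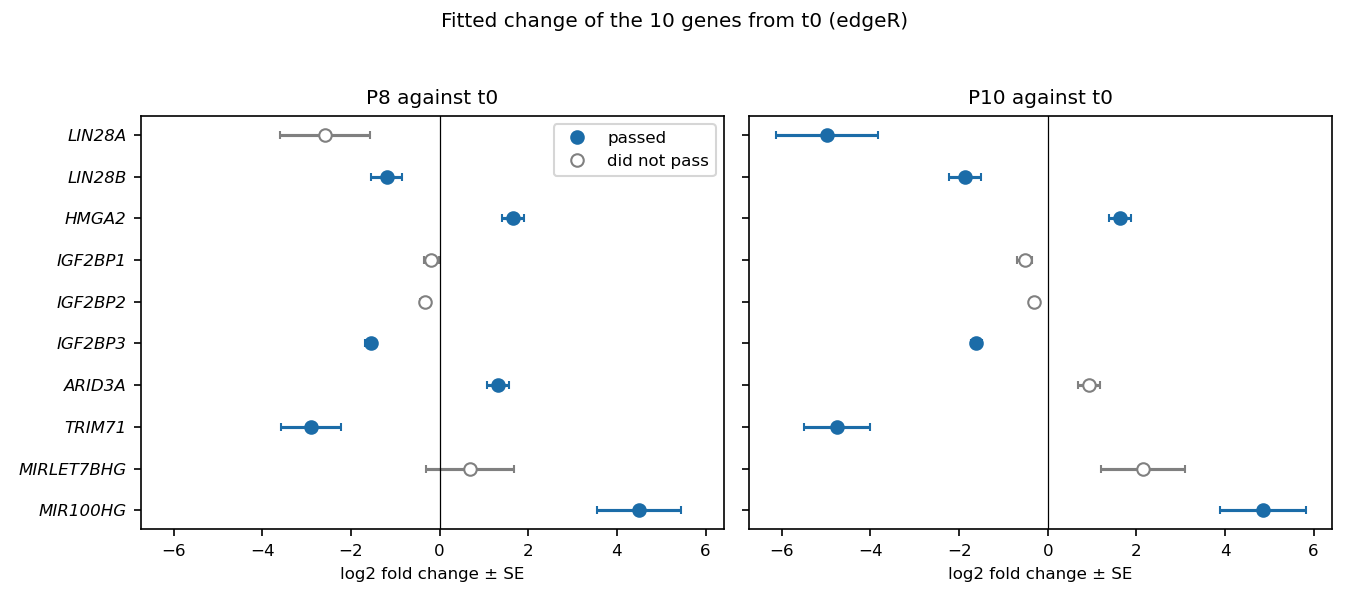
Fitted log2 fold change (x axis) of each of the 10 genes at P8 (left) and P10 (right) against t0. Bars are 1 SE, derived from the edgeR F statistic, and filled points are genes that passed. *MIR100HG*, *HMGA2* and *ARID3A* lie to the right of 0 in both panels, and *LIN28A*, *TRIM71*, *LIN28B* and *IGF2BP3* to the left.

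Step by step along the course, few single steps passed the test. At 36 h against t0, 1 of 10 passed in the higher direction, where 1.32% of the genes tested were called higher, and 0 in the lower direction, where 1.37% were. *ARID3A* was 1.02 ± 0.25 higher (edgeR adjusted p = 0.00746). Its call held in 11 of 17 other settings and was lost without r2, without r3, without the block, in limma, with the compared libraries alone and without P4.r3 and P6.r3, with adjusted p-values up to 0.202. *IGF2BP3* at -0.90 ± 0.12 (edgeR adjusted p = 2.81e-05) was under 2-fold. *LIN28A* at -0.38 ± 0.94, *LIN28B* at 0.09 ± 0.35 and *TRIM71* at -0.40 ± 0.62 had edgeR adjusted p-values of 0.852, 0.917 and 0.748. The SE of *LIN28A* comes from the scatter over the whole course. Within the 3 differentiations its log2 ratios of 36 h to t0 were -0.42 to -0.27.

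From 36 h to P1, 0 of 10 passed, with 0.492% and 0.699% of all genes called higher and lower, and 3 of 10 had an unadjusted edgeR p under 0.05, as had 5083 of the 21750 genes tested. The 3 were *HMGA2* at 0.97 ± 0.25, *IGF2BP3* at -0.43 ± 0.12 and *IGF2BP1* at 0.45 ± 0.17, with adjusted p-values of 0.0172, 0.0295 and 0.106. DESeq2 and limma called 0 of the 10 as well, and *HMGA2* passed when P1.r1 was left out. From P1 to P5, 0 of 10 passed, with 2.15% and 1.86% of all genes called higher and lower. *MIR100HG* was the only one of the 10 with an unadjusted edgeR p under 0.05, where 6791 of the 21750 genes tested had one, at 3.16 ± 0.93 with an adjusted p of 0.0206, and it passed without P1.r1 and in DESeq2 but not in limma, which called 0 of the 10.

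From P5 to P8, 0 of 10 passed, in a comparison that called 0.0046% of genes in each direction. *LIN28A* at -1.77 ± 0.98, *TRIM71* at -1.39 ± 0.64, *LIN28B* at -1.29 ± 0.35, *IGF2BP1* at -0.56 ± 0.17 and *HMGA2* at 0.60 ± 0.25 had edgeR adjusted p-values between 0.0994 and 0.451. All 3 differentiations moved the same way for each of these 5 genes. An unadjusted edgeR p under 0.05 was found for 6 of the 10 genes and for 2892 of the 21750 genes tested, and DESeq2 and limma called 0 of the 10. *LIN28A*, *LIN28B* and *TRIM71* passed without r1.

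From P8 to P9, 1 of 10 passed in the lower direction, with 0.331% of genes called lower, and 0 in the higher direction, with 0.887% called higher. *LIN28A* fell by 8.29 ± 1.59 on the log2 scale (edgeR adjusted p = 0.00387), the widest fitted change of the 10 genes in these steps. *TRIM71* at -3.27 ± 0.82, *LIN28B* at -1.46 ± 0.41, *ARID3A* at -1.02 ± 0.28 and *IGF2BP1* at -0.56 ± 0.20 had edgeR adjusted p-values of 0.0153, 0.0268, 0.0258 and 0.0682 and did not pass. P9 holds 2 libraries, and the call of *LIN28A* was lost without r2, without r3, without the block and when the P8 and P9 libraries were fitted alone. From P8 to P10, 0 of 10 passed, with 0.0874% of genes called higher and 0% lower. There *LIN28A* was at -2.40 ± 1.01, *TRIM71* at -1.85 ± 0.65 and *LIN28B* at -0.66 ± 0.35, with edgeR adjusted p-values of 0.228, 0.14 and 0.351. An unadjusted edgeR p under 0.05 was found for 2 of the 10 and for 3571 of the 21750 genes tested, and DESeq2 and limma called 0 of the 10. Without P10.r1 *LIN28A* and *TRIM71* passed, at -8.11 and -4.19.

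The fractions ask whether the genes differ between epithelial and mesenchymal cells of the same culture. At P5 *LIN28A* was 928, 893 and 842 TPM in EPI and 386, 462 and 223 TPM in MES, so that the groups did not overlap and MES held 0.27 to 0.52 times the EPI level. *TRIM71* was 64.04, 56.3 and 60.8 TPM in EPI and 49.5, 40.1 and 41.9 TPM in MES. *LIN28B* went the other way in each differentiation, with 76.1, 97.0 and 120 TPM in EPI and 90.2, 110 and 158 TPM in MES, although the ranges overlapped. *MIR100HG* was 2.59, 4.89 and 5.16 TPM in EPI and 11.8, 16.3 and 13.6 TPM in MES, 2.64 to 4.57 times as much.

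None of these differences passed. In edgeR 0 of 10 genes and 0% of the 18885 genes tested were called between the P5 fractions. The log2 fold changes of MES against EPI were 1.91 ± 0.47 for *MIR100HG* (edgeR adjusted p = 0.0434), -1.44 ± 0.79 for *LIN28A* (0.293), -0.44 ± 0.39 for *TRIM71* (0.528) and 0.33 ± 0.34 for *LIN28B* (0.598). An unadjusted edgeR p under 0.05 was found for 4894 of the genes tested and for 1 of the 10, *MIR100HG*. DESeq2 called 678 genes, *MIR100HG* among the 10, and limma called 0. The PNP and epithelial markers and the mesenchymal and NC markers both separated the P5 fractions without overlap, and their part in these values was not tested.

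At P8 the ranges of EPI and MES overlapped for *LIN28A*, *LIN28B*, *TRIM71* and *MIR100HG*. *LIN28A* was 619, 150 and 51.6 TPM in EPI and 490, 111 and 15.0 TPM in MES, lower in MES in 3 of 3 differentiations. *MIR100HG* was 5.84, 15.9 and 31.6 TPM in EPI and 27.5, 17.8 and 33.0 TPM in MES, a ratio of 4.72 in r1, 1.12 in r2 and 1.04 in r3. *MIRLET7BHG* had 1, 9 and 14 counts in EPI and 11, 12 and 21 in MES. For *LIN28A* the P8 whole culture lay between its fractions in r2 and above both in r1 and r3, at 681 and 70.9 TPM. For *MIR100HG* it lay between them in r1 and r2 and above both in r3, at 48.2 TPM. The reason was not tested.

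In edgeR 0 of 10 genes and 0% of all genes were called between the P8 fractions, with an unadjusted p under 0.05 for 2261 genes and 0 of the 10. DESeq2 called 54 genes, none of the 10, and limma called 0. The log2 fold changes were -0.58 ± 0.78 for *LIN28A*, -0.18 ± 0.39 for *TRIM71* and 0.74 ± 0.46 for *MIR100HG*, with edgeR adjusted p-values of 0.804, 0.891 and 0.545. The difference between the P8 and P5 contrasts, tested as an interaction, called 0 of 10 and 0% of all genes. It was 0.86 ± 1.09 for *LIN28A*, -0.54 ± 0.49 for *LIN28B* and -1.17 ± 0.64 for *MIR100HG* (edgeR adjusted p-values 0.931, 0.885 and 0.834). The interaction had an unadjusted p under 0.05 for 1152 genes and 0 of the 10, and 1 gene was called by DESeq2 and 0 by limma.

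**Figure D4:**
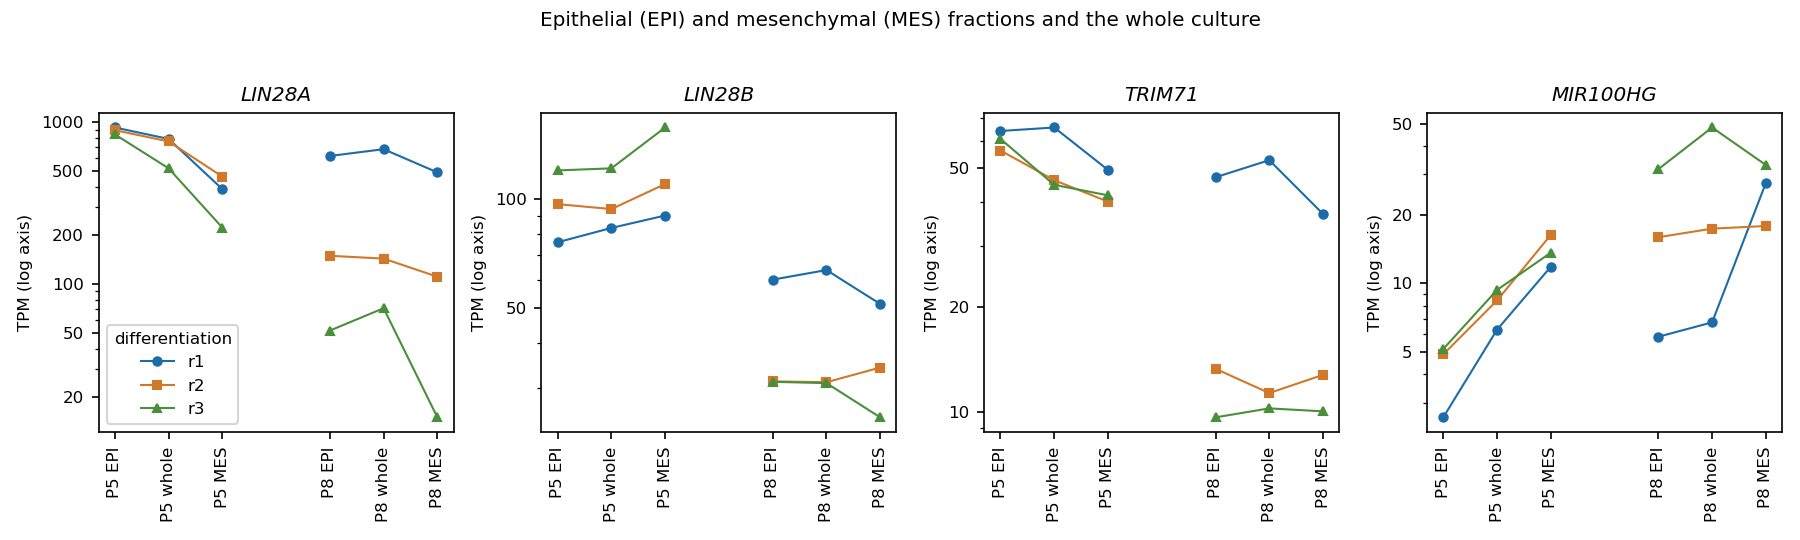
TPM (y axis, log scale) of *LIN28A*, *LIN28B*, *TRIM71* and *MIR100HG* in the EPI fraction, the whole culture and the MES fraction at P5 and P8 (x axis), with a line for each of r1, r2 and r3. At P5 *LIN28A* falls and *MIR100HG* rises from EPI to MES in all 3 differentiations, and at P8 the ranges of the fractions overlap for all 4 genes.

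Within the fractions, P8 was compared with P5. In EPI *LIN28A* was at -2.54 ± 0.85, *TRIM71* at -1.68 ± 0.41, *LIN28B* at -1.23 ± 0.35 and *IGF2BP1* at -0.74 ± 0.18 (log2 fold change of P8 against P5 ± SE). *MIR100HG* was at 2.03 ± 0.47 and *HMGA2* at 0.47 ± 0.11. Each of these 6 genes moved one way in all 3 differentiations. Their edgeR adjusted p-values were 0.0861, 0.042, 0.0605, 0.0431, 0.0373 and 0.0357. *IGF2BP3* at -0.40 ± 0.08 had the lowest of the 10, 0.0238, and was under 2-fold. At the 1% threshold 0 of 10 passed, where 0.228% of genes were called higher and 0.0318% lower.

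In MES *LIN28A* was at -1.69 ± 0.84, *TRIM71* at -1.41 ± 0.41 and *LIN28B* at -1.77 ± 0.36, with edgeR adjusted p-values of 0.211, 0.0571 and 0.0225. *IGF2BP3* at -0.48 ± 0.08 had the lowest of the 10, 0.012, and was under 2-fold. *MIRLET7BHG* was at 3.26 ± 0.90 (edgeR adjusted p = 0.0514), on a mean of 9.51 normalized counts. Again 0 of 10 passed, with 0.582% of genes called higher and 0.116% lower. *LIN28A* rose in r1 by a log2 ratio of 0.34 and was lower in r2 and r3. At an unadjusted edgeR p under 0.05, 8 of the 10 genes were found in EPI and 7 in MES, where 5918 and 5882 of the 18885 genes tested were. DESeq2 called 446 genes higher and 160 lower in EPI, *LIN28B*, *TRIM71* and *MIR100HG* among them, and 593 higher and 159 lower in MES, with *LIN28B* and *TRIM71*, and limma called 0 of the 10 in either.

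The other genes of the pathway were taken from 3 lists. Of 24 genes for microRNA processing and let-7 turnover, among them *DROSHA*, *DICER1*, the argonautes and the uridylyl transferases *TUT4* and *TUT7* that act with LIN28, 0 passed at P8 or P10 against t0, where 7.66% and 9.47% of all genes were called higher and 7.67% and 8.74% lower. Their median log2 fold changes were -0.10 and -0.02, beside 0.02 and 0.01 for all genes tested. Over the 8 whole-culture comparisons 1 of them passed, *TRIM25*, an RNA-binding ubiquitin ligase, which was 1.12 ± 0.17 higher at P5 than at P1 (edgeR adjusted p = 0.00014), a step in which 2.15% of all genes were called higher. It was 23.6 TPM on average at t0, 10.1 at P1 and 23.9 at P5.

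Of 5 other genes at let-7 loci, 1 passed at P8 and P10 against t0, in the higher direction, where 7.66% and 9.47% of all genes were called, and 2 of the 5, *MIR99AHG* and *LINC01465*, had too few counts to pass there. *SPACA6*, whose gene spans let-7e, was 3.03, 2.93 and 3.83 TPM at t0, 7.40, 16.9 and 23.7 TPM at P8 and 11.1, 10.4 and 7.90 TPM at P10. That is 2.49 ± 0.47 and 2.00 ± 0.47 higher (log2 fold change, edgeR adjusted p = 0.000148 and 0.000916). *MIR99AHG*, which spans let-7c, had 2, 0 and 0 expected counts at t0 and again at P1, and 300, 313 and 535 at P5, and passed in that step with an edgeR adjusted p of 0.000599. It averaged 6.73 TPM at P8 and 4.61 TPM at P10. Its mean over the libraries compared with t0 was under the 100 normalized counts that a call needs, so it did not pass there. It was 7.98, 11.6 and 16.3 TPM in the whole cultures at P5 and 24.2, 18.9 and 29.3 TPM in the P5 MES fraction. In the P5 EPI fraction it averaged 7.41 TPM, with libraries from 3.43 to 12.69 TPM, and edgeR called no gene between these fractions. *HUWE1* and *WDR82*, broadly expressed genes that span let-7f-2 with miR-98 and let-7g, averaged 97.6 and 62.3 TPM at t0 and 114.6 and 114.1 TPM at P10 and did not pass. *LINC01465* averaged 0.20 TPM at t0, lies on the opposite strand to let-7i and had too few counts to pass in any comparison. *AC048341.1* spans let-7i on the same strand, and *AL158152.2* spans let-7a-1, let-7f-1 and let-7d. Neither was in the lists, so the genes at let-7 loci were not covered in full.

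Of 27 other let-7 targets, 5 passed higher and 4 lower at P8 against t0, and 6 higher and 6 lower at P10, where 7.66% of all genes were called higher and 7.67% lower at P8 and 9.47% and 8.74% at P10. The letters CTACCTC were found in the 3′ UTR of 20 of the 27, and in none of the principal transcripts of *INSR*, *THBS1*, *MYCN* and *CCND1*, which are among the genes with values given here. The medians of the 27 were -0.05 and -0.08 beside 0.02 and 0.01 for all genes. *NR6A1*, a nuclear receptor of early embryos with 5 seed matches, had the widest change and was 229, 197 and 218 TPM at t0, 3.46, 1.44 and 1.68 TPM at P8 and 1.49, 0.91 and 0.70 TPM at P10. It passed in the steps from P1 to P5 at -3.74 ± 0.41 and from P5 to P8 at -2.77 ± 0.40, and in the MES fraction from P5 to P8 at -3.04 ± 0.44 (edgeR adjusted p = 4.44e-06, 0.00534 and 0.00903). At P10 against t0 the chromatin protein *HMGA1* fell by 2.29 ± 0.25 and the insulin receptor *INSR* by 2.13 ± 0.27, while *THBS1*, an extracellular matrix protein, was 2.78 ± 0.73 higher (edgeR adjusted p = 7.36e-08, 8.53e-07 and 0.00265). *HMGA1* thus fell where its paralogue *HMGA2* rose, from 2087 TPM on average at t0 to 487 at P10, although its expected counts were fractional, so that its level is uncertain to the extent that reads were divided with other genes.

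At 36 h against t0, 2 of the 27 targets passed higher and 2 lower, where 1.32% and 1.37% of all genes were called. *PRTG*, a membrane protein of the immunoglobulin superfamily, was 2.92 ± 0.67 higher and *FNDC3A* 1.01 ± 0.12 higher, while *MYCN* fell by 1.09 ± 0.26 and *INSR* by 1.09 ± 0.27 (edgeR adjusted p = 0.005, 4.73e-06, 0.00613 and 0.00795). *PRTG* averaged 12.1 TPM at t0, 330.6 at P1 and 36.2 at P5, and fell by 3.75 ± 0.69 between the latter (edgeR adjusted p = 0.000743), in a step where 2 of the 27 passed lower and 0 higher and 1.86% and 2.15% of all genes did. From P8 to P9 *FIGNL2* fell by 2.36 ± 0.44 (edgeR adjusted p = 0.00343), as 1 of the 27 called lower, where 0.331% of all genes were. *CCND1*, a cyclin of the cell cycle's first phase, was 1.21 ± 0.11 higher in the MES fraction at P8 than at P5 (edgeR adjusted p = 0.00484), where 1 of the 27 passed higher and 1 lower and 0.582% and 0.116% of all genes did.

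Likeness of course was measured as Pearson's r over the 16 group means of log2 CPM, among the 13293 genes that averaged 100 or more normalized counts. The genes most like *LIN28A* were *CPOX* (r = 0.972), *SALL4* (0.971) and *LSR* (0.968). For *HMGA2* they were *MSRB3* (0.974), *PARVA* (0.963) and *DERL2* (0.96), and *MSRB3* lies on the same chromosome, 333 kb from *HMGA2*. For *LIN28B* they were *TMEM216* (0.971), *PRDX3* (0.962) and *CALM3* (0.96), for *MIR100HG* *AGPAT3* (0.99), *IFI44L* (0.983) and *AC005332.6* (0.981), and for *MIRLET7BHG* *SFXN3* (0.971), *ELF4* (0.961) and *CORO2B* (0.96). These values are descriptions over means that share the same 3 differentiations. *MIRLET7BHG* had 0 to 41 counts in a library, and a prior count of 2 is added before the log. Its r values and their order are uncertain for that reason.

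Among the 10 genes themselves, group means on the log2(TPM + 0.1) scale were closest for *LIN28A* and *TRIM71*, with r = 0.97 over 16 groups. P9 and P10 lie far from the others in both genes, and without them r was 0.92 over 14 groups. Within groups the deviations of libraries from their group mean had r = 0.93 for this pair over 47 libraries. These libraries come from 3 differentiations, and r1 was the highest in both genes in all 10 time points after t0 with 3 libraries. They include P10.r1, which lay far above the other P10 libraries in both genes, and r without it was not calculated. *HMGA2* and *MIR100HG* had r = 0.89 over group means and 0.16 within groups.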

How the data were processed

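RNA was measured by single-end polyA RNA-seq. Per the submitters' processing notes, the authors trimmed reads with cutadapt 1.16, aligned them to GRCh38 with STAR 2.5.2b and quantified genes with RSEM 1.3.0. The annotation release and strand setting are not given in the sources used here. The deposited values were expected counts and TPM per gene, of which 9.33% of the expected counts were not whole. Expected counts were rounded for edgeR 4.0.16 (R 4.3.3), with TMM scaling, filterByExpr and the quasi-likelihood test, in 1 fit of the 35 whole cultures and 1 of the 12 fractions, with Benjamini-Hochberg adjustment over all genes tested. The SE of an edgeR fold change was derived as the absolute log2 fold change over the square root of the F statistic. TPM served for levels. Alternatives used DESeq2 1.42.0 and limma 3.58.1 on log2(TPM + 1).

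The differentiation was kept as a block, since the study took all time points and fractions from each experiment. Deviations of libraries with the same number had a mean correlation of 0.14 in whole cultures and 0.42 in fractions, against -0.07 and -0.21 for other numbers. Deviations from a group mean cancel out within the group. The negative values therefore largely follow from the positive ones and are no separate evidence for the block. The p-values rest on the scatter left within groups after the block, in 3 differentiations of 1 cell line. Each fit estimates that scatter for a gene over all its groups. An early step is thus judged also by the scatter of late passages. Gene symbols came from GENCODE 29, which matched 57447 of 58051 genes. The 10 genes and the other lists were chosen with earlier results of these data known. Named genes of the lists were those past all thresholds with the widest change, up to 4 a comparison. On simulated counts for P10 against P8, 46% of 2-fold and 81% of 4-fold changes were recovered, and for the P5 fractions 56% and 92%. The simulation had no differences between differentiations and no outlying library. Changes were put into genes averaging 100 or more counts, and recovery meant an adjusted p under 1% alone. Between the real P5 fractions edgeR called 0 of 18885 genes, so these shares do not show how many true changes were found there.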

Additional observations from a re-analysis of the deposited data

How the results depend on the processing

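The number of the 10 genes called changed with the settings as follows. Without the replicate block it was 0 in place of 1 at 36 h against t0 and 0 in place of 1 from P8 to P9, and it was 5 at P8 and 5 at P10 against t0, in place of 6. At P8 against t0 it was 7 at an adjusted p under 5%, with no minimum fold change, in DESeq2 and without P10.r1, and 5 with no count filter or the compared libraries alone. At P10 against t0 it was 7 with no minimum fold change. At 36 h against t0 it was 2 with no minimum fold change and 0 with the compared libraries alone, with limma or without P4.r3 and P6.r3. From 36 h to P1 it was 1 without P1.r1. From P1 to P5 it was 1 at an adjusted p under 5%, in DESeq2, with all 47 libraries and without P1.r1. From P8 to P9 it was 4 at 5%, in DESeq2 and without P10.r1, 3 with all 47 libraries, 2 in limma and 0 with the compared libraries alone. From P8 to P10 it was 2 without P10.r1, and at P10 against t0 it was 2 with the compared libraries alone. In the P5 fractions it was 1 at 5% and in DESeq2. From P5 to P8 it was 2 at 5% and 3 in DESeq2 in EPI, and 1 and 2 in MES.

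Leaving out each differentiation in turn gave 0 to 1 at 36 h against t0, 0 to 1 from 36 h to P1, 0 to 1 from P1 to P5, 0 to 3 from P5 to P8, 0 to 2 from P8 to P9, 0 to 2 from P8 to P10, 2 to 7 at P8 against t0, 4 to 6 at P10 against t0, 0 to 2 in EPI and 0 to 1 in MES. Where this left P9 with 1 library, that library was assumed to vary like the other groups. *LIN28B* at 36 h against t0 ranged from -0.093 to 0.23 and changed sign without r3. The causes were not tested. *HMGA2* and *IGF2BP3* passed at P8 and P10 against t0 in 17 of 17 settings, *LIN28A* from P8 to P9 and at P10 against t0 in 13 of 17 each. Depth limits *MIRLET7BHG*, at 0 to 41 counts.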
